A study of Mus musculus with 4 samples.

Results

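The genes described here are 28 members of the cholesterol synthesis and SREBP2 program, found by symbol among the 24341 genes of the deposited expression table. They comprise 18 enzymes that build cholesterol from acetyl-CoA, 4 genes of the sterol sensor (Srebf2, Scap, Insig1, Insig2), 2 genes of sterol transport (Stard4, Npc1), 3 genes of the liver X receptor and sterol efflux (Nr1h2, Abca1, Abcg1) and the lipid phosphatase Lpin1. Expression was measured by RNA sequencing of polyadenylated RNA from CAD cells, a neuronal line of mouse catecholaminergic origin (Cath.-a-differentiated) that takes a neuron-like form once serum is removed. All 4 cultures had been in medium without serum for 5 days. Of these, 2 libraries came from cells given the solvent DMSO for 24 h and 2 from cells given ACSS2i, a quinoxaline urea inhibitor of ACSS2, at 20 µM for 24 h. ACSS2 makes acetyl-CoA, the substrate of cholesterol synthesis, from acetate. Whether replicate libraries were grown as separate cultures is not stated, so a p-value here reflects only how these libraries spread, and that spread may be technical.

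Cholesterol is made by a long chain of enzymes: the mevalonate steps turn acetyl-CoA into farnesyl pyrophosphate, and the squalene and sterol steps join and fold it into the sterol ring and trim it to cholesterol. The chain is governed by SREBP2, a transcription factor (gene Srebf2) held in the endoplasmic reticulum with its escort SCAP. When sterols are plentiful the INSIG proteins keep the pair there. When sterols run low, SREBP2 is carried to the Golgi, cut, and enters the nucleus, where it binds sterol response elements beside its target genes, usually with the factor NF-Y. Sterol excess is read by the liver X receptors, which switch on the efflux pumps ABCA1 and ABCG1.

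Promoter sequences were looked at first because sterol response elements lie close to the start of target genes. RefSeq promoter windows on GRCm38.p6 (250 bases before to 50 after the start) matched 22 of the 28 members. The letters TCACNCCA, the core of a sterol response element, were found on either strand in the windows of 3 of the 22: Hmgcs1, Msmo1 and Srebf2. They occurred in 4.97% of the 27025 genes with a window and in 4.47% of the tested genes with one. The NF-Y box CCAAT was found in 17 of the 22 members. These were 14 of the 15 synthesis enzymes with a window and 3 of the 7 other members with one. The share was 41.1% of all genes with a window and 43.7% of the tested genes with one. The GC box GGGCGG was found in 19 of the 22, against 38.2% of all genes and 70.8% of the tested genes. These motifs do not overlap one another in the stretches printed, and a match describes letters only. The stretches below are those of 2 genes that hold the core (Hmgcs1, Srebf2), of 2 enzymes with repeated CCAAT boxes and no core (Mvk, Nsdhl) and of Abca1, which holds neither. They are written 5′ to 3′ on the gene's strand, and end at the last base before the earlier of the RefSeq and GENCODE M21 starts. Capitals mark the core and the NF-Y box, which reads ATTGG where it lies on the other strand.
Hmgcs1, chr13:119690151-119690350, plus strand: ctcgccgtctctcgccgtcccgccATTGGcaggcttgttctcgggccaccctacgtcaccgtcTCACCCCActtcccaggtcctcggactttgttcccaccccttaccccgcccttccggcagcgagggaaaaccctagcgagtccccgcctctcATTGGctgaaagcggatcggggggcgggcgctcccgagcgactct
Srebf2, chr15:82147069-82147180, plus strand: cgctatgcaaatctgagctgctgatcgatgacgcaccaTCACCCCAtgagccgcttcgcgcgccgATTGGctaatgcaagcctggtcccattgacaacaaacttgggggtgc
Mvk, chr5:114444069-114444268, plus strand: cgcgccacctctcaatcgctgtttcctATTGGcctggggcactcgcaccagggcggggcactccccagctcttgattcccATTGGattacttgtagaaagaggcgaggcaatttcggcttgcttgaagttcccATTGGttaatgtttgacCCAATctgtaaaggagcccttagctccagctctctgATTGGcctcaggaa
Nsdhl, chrX:72918321-72918520, plus strand: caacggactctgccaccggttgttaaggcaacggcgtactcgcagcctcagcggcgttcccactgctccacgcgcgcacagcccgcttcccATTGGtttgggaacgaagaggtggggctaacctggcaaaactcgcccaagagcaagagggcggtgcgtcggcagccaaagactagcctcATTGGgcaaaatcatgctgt
Abca1, chr4:53159896-53160095, minus strand: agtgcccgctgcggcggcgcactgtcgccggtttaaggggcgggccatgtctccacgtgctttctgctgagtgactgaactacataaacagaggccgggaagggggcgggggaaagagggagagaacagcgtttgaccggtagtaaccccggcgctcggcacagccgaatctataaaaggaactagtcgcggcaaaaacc

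The core began 137 bases before the RefSeq start in Hmgcs1 and 162 bases before it in Srebf2, both as TCACCCCA, and 177 bases before it in Msmo1, as TCACTCCA. The nearest CCAAT box began 39 bases upstream of the core in Hmgcs1, 27 bases downstream in Srebf2 and 17 bases downstream in Msmo1. In Msmo1 the GENCODE M21 start lies further upstream than the RefSeq start, and the core falls after it, within the annotated gene. The Mvk stretch holds 5 CCAAT boxes and that of Nsdhl 2.

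The libraries differed in depth. Relative to DMSO replicate 1 it was 0.292 in DMSO replicate 2, 0.675 in ACSS2i replicate 1 and 0.857 in ACSS2i replicate 2, read from the steps of low values, which puts 1 read in a transcript of 2 kb at 0.0429 to 0.147 FPKM. Values were taken as FPKM, fragments scaled to transcript length and library size. Comparisons between genes rest on that reading, because the deposited table names no unit and its adjustment is not described. The FPKM sum was highest in ACSS2i replicate 2, at 675716 against 558458 to 590549 in the others. All 9 neuronal and CAD markers looked at were above the floor value of 0.01 FPKM in at least 1 library, although the catecholamine enzyme gene Dbh was at most 0.624 FPKM. They summed to 7702 and 10951 FPKM with DMSO, 5152 FPKM in ACSS2i replicate 1 and 3884 FPKM in ACSS2i replicate 2, most of it Chgb, a granule protein gene, at 6801, 10010, 4453 and 2509 FPKM. The 3 astrocyte, 4 microglial and 3 fibroblast markers summed to at most 0.66, 0.505 and 0.498 FPKM, with Col1a2 at the floor in all 4 libraries, and the 3 oligodendrocyte and 2 endothelial markers to at most 5.17 and 1.63 FPKM. The dividing-cell genes Mki67, Top2a, Ccnb1 and Cdk1 summed to 4.51 and 11.1 FPKM in the DMSO libraries, 52.8 FPKM in ACSS2i replicate 1 and 114 FPKM in ACSS2i replicate 2.

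The cholesterol synthesis enzymes were high in a single library, ACSS2i replicate 2. Every one of the 18 had its highest value there, at 1.42 to 6.63 times the DMSO mean (median 3.41). In ACSS2i replicate 1 the same 18 genes stood at 0.516 to 1.38 times the DMSO mean (median 0.961). The sum of their FPKM was 412 and 372 with DMSO, 373 in ACSS2i replicate 1 and 1419 in ACSS2i replicate 2. As a share of all FPKM this was 0.0698% and 0.0631% with DMSO, 0.0667% in the first inhibitor library and 0.21% in the second. In bulk RNA, more cells that express a gene and more RNA per cell cannot be told apart. The inhibitor libraries are described separately below.

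**Figure D1:**
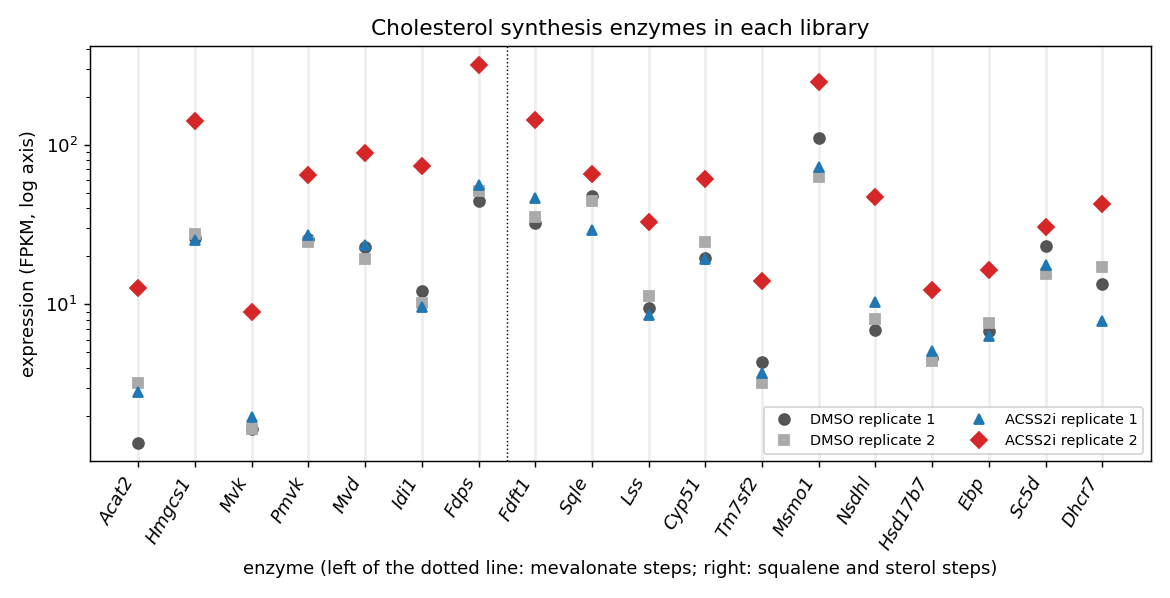
FPKM (log axis) of the 18 cholesterol synthesis enzymes in pathway order, 1 point per library with no averaging. ACSS2i replicate 2 (red diamonds) is the highest point of every enzyme. ACSS2i replicate 1 (blue triangles) lies above both DMSO points for 7 enzymes, below both for 7 and between them for 4. Relative to the DMSO mean it is lowest for Dhcr7 and Sqle and highest for Nsdhl and Fdft1.

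The comparison of ACSS2i with DMSO was tested with limma on log2(FPKM + 1) over 11486 genes whose mean reached 1 FPKM, 27 of the members among them. An adjusted p under 0.05 was reached by 0 of the 27 members and by 0.0261% of all tested genes. At an unadjusted p under 0.05 there were 0 members higher (3.29% of all tested genes) and 1 lower, Abca1 (3.67% of all tested genes). Adjusted p of the members ran from 0.589 to 0.98, and 0.333 is the smallest p that an exact permutation test can give with 2 libraries a group. The median log2 fold change was 0.66 over the 27 members and 0.77 over the 18 enzymes, beside 0.020 over all tested genes. It was positive in 20 of the 27 members and 17 of the 18 enzymes, against 52.2% of all tested genes. These medians join libraries that differ: the enzyme median was 1.61 in ACSS2i replicate 2 alone and -0.046 in ACSS2i replicate 1 alone, each relative to the DMSO mean. Without ACSS2i replicate 1 the DMSO pair alone gives the spread, and 19 members were higher and 1 lower at an unadjusted p under 0.05, with a smallest adjusted p of 0.0716. In that fit 8.42% of all tested genes were higher and 6.05% lower at the same p. Without ACSS2i replicate 2 it was 0 higher (5.62% of all tested genes) and 4 lower (Abca1, Dhcr7, Sqle and Srebf2; 7.50%), with a smallest adjusted p of 0.296. With a replicate block it was 4 higher (3.10% of all tested genes) and 1 lower (3.39%).

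The enzymes were then set beside all tested genes. ACSS2i replicate 2 was above both DMSO libraries in 18 of the 18 enzymes (39.0% of all tested genes) and below both in 0 (37.0%), and at least 2 times the higher DMSO library in 16 of the 18 (3.88% of all tested genes). It was at least 2 times ACSS2i replicate 1 in 17 of the 18 (8.62% of all tested genes). By the log2 difference between the inhibitor libraries, the 17 lay in the top 5% of all tested genes, with Idi1 at rank 38, Fdps at 51 and Hmgcs1 at 56 of 11486. ACSS2i replicate 1 was above both DMSO libraries in 7 of the 18 enzymes (38.4% of all tested genes) and below both in 7 (36.8%), and at least 2 times the higher DMSO library in 0 (2.39%). The DMSO libraries differed by a median of 1.18 times over them and by at least 2 times only for Acat2 (5.89% of all tested genes). A difference between 1 library and another has no replicate and no test. The dividing-cell genes above were also higher in ACSS2i replicate 2 than in replicate 1 (51.6% of all tested genes). The ratio ran from 1.12 for Mki67 to 4.64 for Ccnb1. All 4 were above both DMSO libraries in both inhibitor libraries (19.0% of all tested genes). The neuronal genes Tubb3, Snap25, Stmn2 and Uchl1 were 2.66, 1.92, 2.10 and 1.87 times as high in ACSS2i replicate 2 as in replicate 1, and Chgb 0.563 times. The part of cell division or of the neuronal markers in the enzyme values was not tested.

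**Figure D2:**
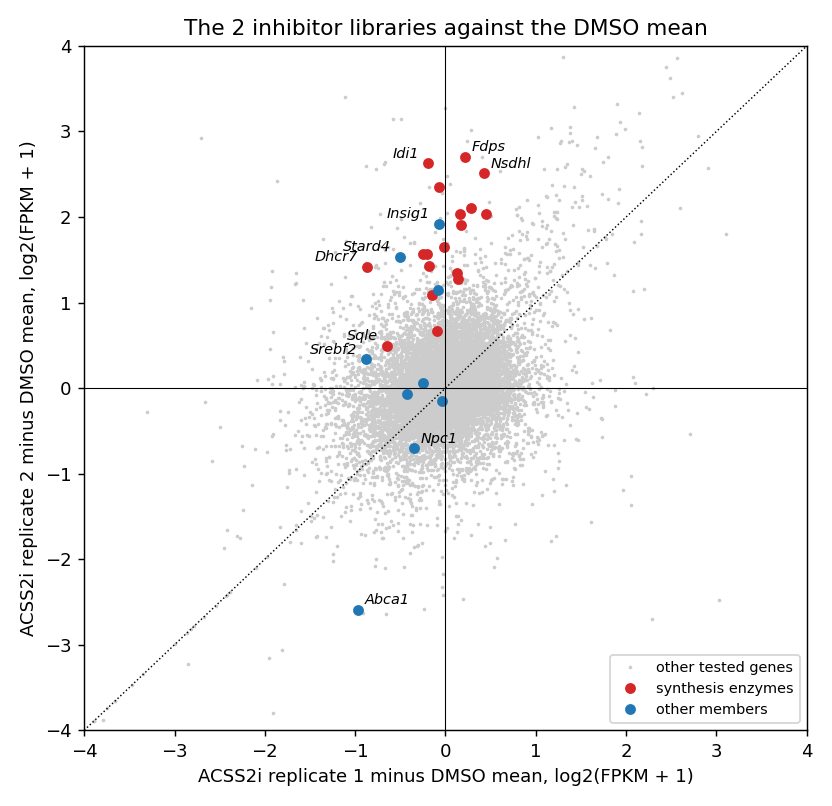
Each point is a tested gene, with its difference from the DMSO mean in ACSS2i replicate 1 (horizontal) and in ACSS2i replicate 2 (vertical), both on log2(FPKM + 1); 57 genes lie beyond the axis limits of 4, and the dotted line marks equal differences. The enzymes (red) run from -0.87 (Dhcr7) to 0.44 (Fdft1) on the horizontal axis. On the vertical axis they run from 0.50 (Sqle) to 2.71 (Fdps), and Abca1 lies low on both axes.

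Among the mevalonate steps, all 7 enzymes stood at 2.59 times the DMSO mean or more in ACSS2i replicate 2. Hmgcs1, on chromosome 13 from 119690379 to 119708260 on the plus strand, makes HMG-CoA from acetyl-CoA units and carries the sterol response core shown above. It was at 26.0 and 27.4 FPKM in the DMSO libraries, 25.3 FPKM in ACSS2i replicate 1 and 141 FPKM in ACSS2i replicate 2. The first 3 libraries agreed within a few FPKM and the fourth was 5.27 times the DMSO mean (log2 fold change over both inhibitor libraries 1.14 ± 0.74, SE; limma adjusted p = 0.811). Idi1, which isomerises the isoprene unit, was at 12.0 and 10.2 FPKM with DMSO and 9.58 and 73.8 FPKM with the inhibitor. Its second inhibitor value was 6.63 times the DMSO mean, the largest ratio among the members, and its first lay below both DMSO values. Fdps, which makes farnesyl pyrophosphate, was at 44.1 and 51.6 FPKM with DMSO and 55.6 and 317 FPKM with the inhibitor, so that it had the highest level of any member in ACSS2i replicate 2.

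The kinases and the decarboxylase between these steps went the same way. Mvk, mevalonate kinase, on chromosome 5 from 114444269 to 114460591 on the plus strand, was at 1.65 and 1.64 FPKM with DMSO and 1.97 and 8.91 FPKM with the inhibitor. Pmvk, which adds the next phosphate, was at 25.5 and 24.5 FPKM and at 27.3 and 64.8 FPKM. Mvd, the decarboxylase that yields the isoprene unit, was at 22.8 and 19.2 FPKM and at 23.6 and 88.7 FPKM. For Mvk, Pmvk, Mvd and Fdps both inhibitor values exceeded both DMSO values, with the first at 1.04 to 1.19 times the higher DMSO value. Acat2, the cytosolic thiolase that joins acetyl-CoA units, was at 1.36 and 3.20 FPKM with DMSO and 2.83 and 12.6 FPKM with the inhibitor. Acat2 values are uncertain because reads can be divided between it and its close copy Acat3, which was at 19.5 and 43.0 FPKM with DMSO and 30.3 and 42.6 FPKM with the inhibitor.

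The squalene and sterol steps were less uniform. In ACSS2i replicate 2 the 11 enzymes ranged from 1.42 to 6.32 times the DMSO mean, with a median of 2.77 against 5.41 for the mevalonate steps. Nsdhl, on the X chromosome from 72918557 to 72958514 on the plus strand, takes part in removing methyl groups from the sterol ring and was at 6.86 and 8.11 FPKM with DMSO and 10.3 and 47.3 FPKM with the inhibitor. It had the largest ratio of this branch, and both inhibitor values were above both DMSO values (log2 fold change 1.47 ± 0.65, SE; limma adjusted p = 0.749). Fdft1, squalene synthase, was at 32.4 and 35.3 FPKM with DMSO and 46.4 and 142 FPKM with the inhibitor. Its first inhibitor value was 1.31 times the higher DMSO value, and it had the smallest unadjusted p of the enzymes (0.0522 by limma, adjusted p = 0.727). Hsd17b7, a sterol ketone reductase, was at 4.57 and 4.42 FPKM and at 5.06 and 12.3 FPKM. These 3 and the 4 mevalonate enzymes named above had both inhibitor libraries above both DMSO libraries. They were 7 of the 18 enzymes, against 19.0% of all tested genes. All 18 were above both DMSO libraries in ACSS2i replicate 2, so this count depends on ACSS2i replicate 1 only. In that library 38.9% of the enzymes and 38.4% of all tested genes were above both DMSO libraries.

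In the other 8 sterol enzymes the groups overlapped. Lss, which closes the sterol ring, was at 9.52 and 11.2 FPKM with DMSO and 8.54 and 32.7 FPKM with the inhibitor. Cyp51, which removes the methyl group of lanosterol, was at 19.5 and 24.7 FPKM and at 19.3 and 60.6 FPKM. Both had a first inhibitor value just under the DMSO pair and a second one above it by more than 2 times. Tm7sf2, a sterol reductase, was at 4.36 and 3.21 FPKM with DMSO and 3.69 and 13.9 FPKM with the inhibitor. Msmo1, a sterol methyl oxidase with the core in its RefSeq promoter window, was at 111 and 62.9 FPKM and at 72.1 and 249 FPKM. For these 2 the first inhibitor library lay between the DMSO libraries, which for Msmo1 were themselves 1.76 times apart. Ebp, a sterol isomerase, was at 6.76 and 7.61 FPKM with DMSO and 6.35 and 16.4 FPKM with the inhibitor. Sc5d, the sterol desaturase, was at 23.1 and 15.4 FPKM and at 17.7 and 30.5 FPKM, only 1.32 times the higher DMSO value in ACSS2i replicate 2.

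Sqle and Dhcr7 had inhibitor values on opposite sides of the DMSO pair. Dhcr7, which performs the last reduction to cholesterol, was at 13.5 and 17.1 FPKM with DMSO, 7.88 FPKM in ACSS2i replicate 1 and 42.3 FPKM in ACSS2i replicate 2. The inhibitor libraries were thus 5.37 times apart and the DMSO libraries 1.27 times apart. Sqle, squalene epoxidase, was at 47.4 and 44.6 FPKM with DMSO and 29.1 and 65.3 FPKM with the inhibitor. It was the 1 enzyme of 18 with a negative log2 fold change (-0.074 ± 0.40, SE), and its ratio of 1.42 in ACSS2i replicate 2 was the smallest of the enzymes.

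**Figure D3:**
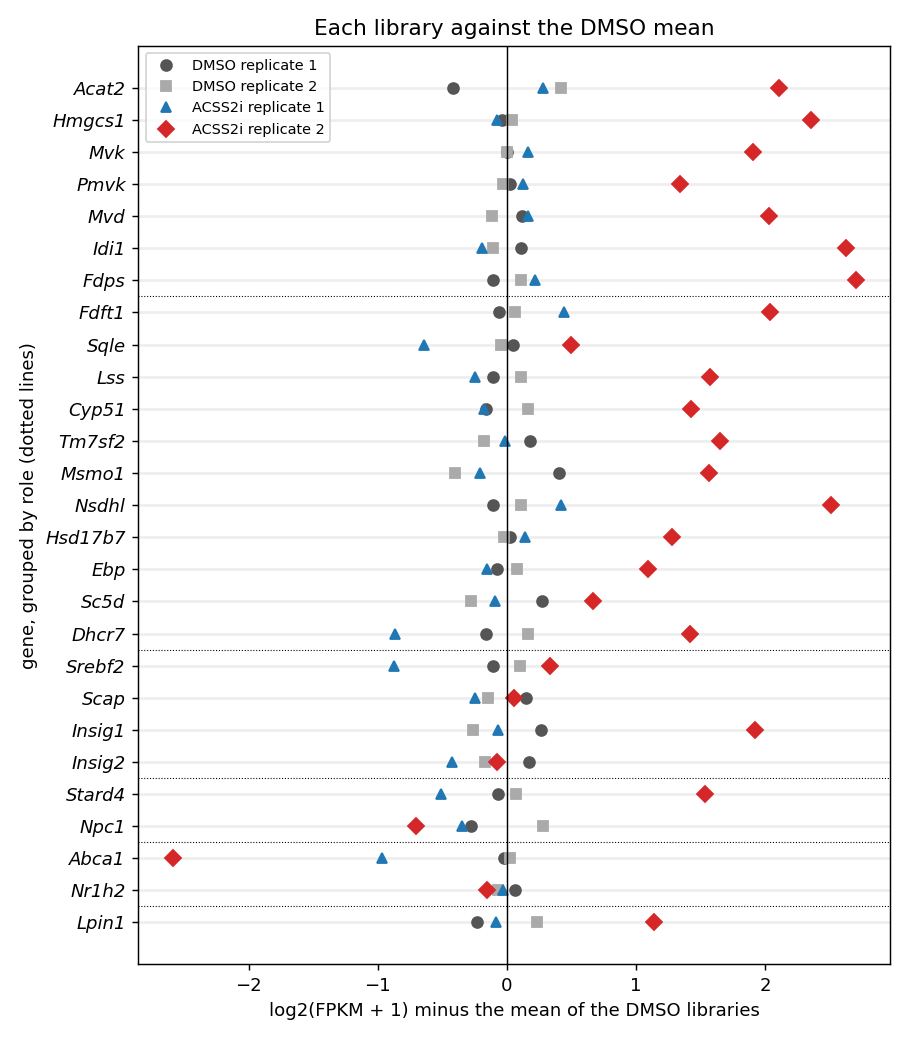
Difference of each library from the mean of the DMSO libraries, on log2(FPKM + 1), for the 27 tested members grouped by role, 1 point per library. ACSS2i replicate 2 (red) runs from -2.59 for Abca1 to 2.71 for Fdps; ACSS2i replicate 1 (blue) from -0.97 for Abca1 to 0.44 for Fdft1.

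Within the sterol sensor, Insig1 had values like those of the enzymes, and the other 3 were at most 1.27 times the DMSO mean in ACSS2i replicate 2. Insig1, the INSIG protein induced by SREBP2, was at 22.3 and 15.1 FPKM with DMSO, 17.5 FPKM in ACSS2i replicate 1 and 72.5 FPKM in ACSS2i replicate 2. The first lay between the DMSO libraries and the second was 3.87 times their mean. Insig2, its paralog, was at 19.5 and 15.2 FPKM with DMSO and 12.6 and 16.3 FPKM with the inhibitor. Scap, the escort of SREBP2, was at 11.4 and 9.06 FPKM with DMSO and 8.39 and 10.6 FPKM with the inhibitor. For Insig2 and Scap ACSS2i replicate 2 lay between the DMSO libraries and ACSS2i replicate 1 below both. Srebf2, on chromosome 15 from 82147181 to 82205379 on the plus strand, was at 24.2 and 28.2 FPKM with DMSO, 13.8 FPKM in ACSS2i replicate 1 and 33.2 FPKM in ACSS2i replicate 2. It was 0.526 times the DMSO mean in the first inhibitor library and 1.27 times in the second (log2 fold change -0.27 ± 0.42, SE; limma adjusted p = 0.932). In ACSS2i replicate 1 Srebf2 and Dhcr7 lay at percentiles 5.08 and 5.20 of all tested genes by difference from the DMSO mean.

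The transport genes diverged. Stard4, a carrier that moves cholesterol between membranes and a target of SREBP2, was at 13.9 and 15.4 FPKM with DMSO and 9.98 and 44.2 FPKM with the inhibitor. It followed the enzymes in ACSS2i replicate 2, at 3.02 times the DMSO mean, and lay below both DMSO libraries in replicate 1. Npc1, which exports cholesterol from lysosomes, was at 8.76 and 13.4 FPKM with DMSO and 8.31 and 6.29 FPKM with the inhibitor. Both inhibitor values were below both DMSO values (18.3% of all tested genes), with the first at 0.948 times the lower of them (log2 fold change -0.53 ± 0.29, SE; limma adjusted p = 0.791).

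Abca1 was lower in both inhibitor libraries, and it was the member with the smallest p. The gene, on chromosome 4 from 53030787 to 53159895 on the minus strand, encodes the pump that loads cholesterol onto apolipoproteins and is a target of the liver X receptors. It was at 17.0 and 17.6 FPKM with DMSO, 8.36 FPKM in ACSS2i replicate 1 and 2.04 FPKM in ACSS2i replicate 2. The DMSO libraries differed by 1.03 times, and the inhibitor libraries were at 0.483 and 0.118 times their mean (log2 fold change -1.78 ± 0.52, SE; limma unadjusted p = 0.014, adjusted p = 0.589). Abca1 thus had the opposite order to the enzymes in the second inhibitor library, where it ranked 11450 of 11486 tested genes from the highest difference. Nr1h2, which encodes liver X receptor beta, was at 21.1 and 19.2 FPKM with DMSO and 19.6 and 18.0 FPKM with the inhibitor, a log2 fold change of -0.093 ± 0.22 (SE). Abcg1, the related efflux pump, was the 1 member below the filter, at 0.0141 and 0.0485 FPKM with DMSO and 0.0209 and 0.0165 FPKM with the inhibitor. Multiplied by the relative depths its 4 values were all 0.0141, so that they are the steps of an equal, small number of reads and carry no comparison. Those depths were themselves read from low values such as these.

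Lpin1, a phosphatidate phosphatase that is also a target of SREBP factors, was at 12.0 and 17.0 FPKM with DMSO and 13.4 and 32.7 FPKM with the inhibitor. It lay between the DMSO libraries in ACSS2i replicate 1 and at 2.26 times their mean in replicate 2.

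Of 28 other genes of sterol regulation, uptake and turnover, 23 were tested. By limma 0 passed an adjusted p of 0.05 (0.0261% of all tested genes). At an unadjusted p under 0.05 there were 0 higher (3.29% of all tested genes) and 3 lower (3.67%). Their median log2 fold change was -0.27, beside 0.020 over all tested genes, with 17 of 23 negative (47.8% of all tested genes). Both inhibitor libraries lay below both DMSO libraries in 10 of 23 (18.3% of all tested genes). ACSS2i replicate 2 was at least 2 times the higher DMSO library in 1 of 23, Acss2 (3.88% of all tested genes). Cyp46a1, the neuronal enzyme that hydroxylates cholesterol for its removal from brain, was at 3.19 and 1.71 FPKM with DMSO and 0.615 and 0.145 FPKM with the inhibitor (log2 fold change -1.31 ± 0.39, SE; unadjusted p = 0.0146, adjusted p = 0.589). Like Abca1 it was lower in both inhibitor libraries and lowest in the second. Mbtps1 and Mbtps2 encode the Golgi proteases that release SREBP2. Mbtps1 was at 39.7 and 34.7 FPKM with DMSO and 23.0 and 26.3 FPKM with the inhibitor, and Mbtps2 at 35.8 and 38.1 FPKM and at 18.4 and 27.4 FPKM. Both had adjusted p above 0.7 by limma (0.712 and 0.703). Acss2, the target of the inhibitor, was at 11.7 and 10.0 FPKM with DMSO, 12.8 FPKM in ACSS2i replicate 1 and 26.6 FPKM in ACSS2i replicate 2, 2.45 times the DMSO mean in the latter (adjusted p = 0.785).

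The branches that use the isoprene unit for products other than cholesterol were given by 11 genes. Of these, all tested, 0 passed an adjusted p of 0.05 by limma (0.0261% of all tested genes). At an unadjusted p under 0.05 there were 0 higher (3.29% of all tested genes) and 0 lower (3.67%). The median log2 fold change was 0.22, beside 0.020 over all tested genes. ACSS2i replicate 2 was at least 2 times the higher DMSO library in 0 (3.88% of all tested genes). Rabggtb, a subunit of the enzyme that prenylates Rab proteins, was at 151 and 101 FPKM with DMSO and 211 and 176 FPKM with the inhibitor. Dhdds, of dolichol synthesis, was at 12.9 and 11.1 FPKM and at 16.1 and 18.1 FPKM. Pdss2, of the ubiquinone side chain, was at 9.52 and 8.51 FPKM and at 10.9 and 15.8 FPKM. Pdss1, the other subunit of that enzyme, had 12.3 and 14.9 FPKM against 14.5 and 19.4 FPKM. Both inhibitor libraries were above both DMSO libraries in 5 of the 11 (19.0% of all tested genes), Rabggtb, Dhdds, Pdss2, Fnta and Fntb, and below both in 1, Ggps1 (18.3%). The groups overlapped for Pdss1.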

How the data were processed

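The deposited values were taken as FPKM, because the submitters' processing notes name Cufflinks 2.2.1; the file header names no unit. The notes also name bcl2fastq 02.14.01.07, STAR 2.3.0, Cuffdiff and mm10. The table is called adjusted, and how it was adjusted is not given in the sources used here. A failure mark removed 1 gene, which left 24340. Values were tested as log2(FPKM + 1) with limma 3.58.1 (R 4.3.3; mean-variance trend, two-sided, Benjamini-Hochberg adjustment over 11486 genes whose mean FPKM was 1 or more). Fold changes on this scale understate the change of low genes. Ratios to the DMSO mean use FPKM itself. Relative depths are the commonest ratio to DMSO replicate 1 among 743 genes at or under 0.5 FPKM in all libraries; nominal reads use GENCODE M21 transcript lengths. Alternatives were other filters, pseudocounts and scalings, a replicate block and leaving out each library. All 28 members are named; of the other 2 lists, the 4 genes with the smallest p. Members and lists were chosen with earlier results of these data known. Some genes of this pathway are not reported here.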

Additional observations from a re-analysis of the deposited data

How the results depend on the processing

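Of the 27 tested members, the direction was the same in all under every other filter, pseudocount, scaling and the replicate block (25 tested with a mean of at least 5), and an adjusted p under 0.05 was reached by 0 in every fit. Genes called higher over the whole table numbered 2, and 0 without a filter, 1 where the mean had to reach 5, 0 with a pseudocount of 5 and 3 to 16 when a library was left out. Genes called lower numbered 1, and 0 without a filter, 4 with a pseudocount of 0.1, 0 with a pseudocount of 5 and 0 to 18 when a library was left out. With a replicate block these were 4 and 4, and 4 members higher and 1 lower had an unadjusted p under 0.05 (3.10% and 3.39% of all tested genes). The labels do not say that the replicate numbers pair the samples, and the deviations of the replicate 1 libraries from their group means had a correlation of -0.017 across genes. The median log2 fold change ran from -0.089 to 1.42 over the members and from -0.046 to 1.61 over the enzymes when a library was left out, in both cases lowest without ACSS2i replicate 2 and highest without ACSS2i replicate 1. Members whose direction reversed when a library was left out had log2 fold changes from -0.075 to 2.35 (Hmgcs1), -0.19 to 2.63 (Idi1), -0.25 to 1.57 (Lss), -0.18 to 1.42 (Cyp51), -0.017 to 1.65 (Tm7sf2), -0.21 to 1.57 (Msmo1), -0.15 to 1.09 (Ebp), -0.089 to 0.66 (Sc5d), -0.87 to 1.42 (Dhcr7), -0.070 to 1.92 (Insig1), -0.51 to 1.53 (Stard4) and -0.087 to 1.14 (Lpin1). These 12 reversed without ACSS2i replicate 2. Sqle (-0.64 to 0.50) and Srebf2 (-0.88 to 0.34) reversed without ACSS2i replicate 1, and Scap (-0.25 to 0.056) without it or DMSO replicate 1. Abca1 was negative in every fit, from -2.59 to -0.97 when a library was left out. A fit with 1 library in a group takes that library to vary like the other group, and DMSO replicate 2 was the shallowest.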
